A study of Rattus norvegicus with 6 samples.

Results

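Chemokines are small secreted proteins that guide leukocytes and progenitor cells along gradients by acting on G-protein-coupled receptors. Their subfamilies are named for the spacing of the first cysteines (CC, CXC and CX3C), and CXC chemokines that carry the ELR letters, such as Cxcl1, mainly draw neutrophils, while Ccl2 and Ccl7 mainly draw monocytes. Many of them are induced through NF-kB by interleukin-1 and tumour necrosis factor, and disc cells are known to release them in degenerating discs. Here 10 chemokine genes (Ccl2, Ccl5, Ccl7, Ccl20, Cx3cl1, Cxcl1, Cxcl2, Cxcl6, Cxcl10 and Cxcl12) were taken by gene name from a gene table of 19088 rows. Each of the 10 had a single gene row and a single transcript row.

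The cells were primary nucleus pulposus cells, from the gelatinous core of the intervertebral disc, of SD rats. The 3 rShh samples had received recombinant Sonic hedgehog (rShh), a secreted ligand of the Hedgehog pathway, at 200 ng/ml in DMSO for 48 h. The 3 Control samples had received DMSO for 48 h. Both groups grew in DMEM/F12 with fetal bovine serum and antibiotics. The labels name no separate animals or cultures behind the replicates, and each p-value is therefore set against a spread among libraries that may be technical only.

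The rShh libraries held 65116846 to 70031072 counts and the Control libraries 50758195 to 55501124. Mitochondrial transcripts made up 3.25% to 3.36% of counts in the rShh libraries and 1.97% to 2.28% in the Control libraries. The libraries also stood apart by transcripts of the Y chromosome. Of 20 Y-linked rows, 4 had at least 100 counts in every rShh library and 0 in every Control library, and over these 4 the rShh libraries held 13442 to 14526 counts each. The labels give no sex, and this difference cannot be told apart from the treatment in any comparison here. Of 12 nucleus pulposus and notochordal markers 8 had a row, and T, Krt19, Car3 and Noto had none under those symbols. The markers with a row summed to 701 to 740 CPM (counts scaled to library size) in the rShh libraries and 254 to 271 in the Control libraries. Acan, the core protein of aggrecan, made up most of the rShh sum and rose. Of the 7 tested markers 5 fell, where 28.8% of all genes tested fell and 31.5% rose. Among the 5 were Krt8, Cd24 and Col2a1 (0.107 CPM in rShh cells and 1.61 CPM in Control cells). Pax1 was also among the 5 but stayed well expressed, at 68.54 CPM in rShh cells and 89.81 CPM in Control cells. Foxf1 was called neither higher nor lower, at 50.85 CPM in rShh cells and 47.05 CPM in Control cells. Krt18 had at most 9 counts in any library. With some listed markers expressed and others scarce or without a row, the labelled cell type was only partly borne out by its markers.

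Of the 9 chemokine genes that had enough counts to be tested, 6 rose in rShh cells, 1 fell and 2 did not pass (edgeR's quasi-likelihood test, Benjamini-Hochberg adjusted p below 0.05 over 14775 genes). Over all genes tested, 31.5% rose, 28.8% fell and 60.3% changed in either direction. Cxcl12, Ccl2, Cxcl2, Ccl7, Cxcl1 and Ccl20 rose, from the 98-fold change of Cxcl12 to the 1.73-fold change of Ccl20. Cxcl6 fell, and was 6.94-fold higher in Control cells. At least 2-fold increases that passed the test were found for 4 of the 9, against 13% of all genes, and such decreases for 1, against 5.71%. The median log2 change of the 9 was 1.02, while that of all genes tested was 0.015. The chemokine genes were chosen with earlier results of these data known. Setting them against all genes therefore cannot show a rise of chemokines as a family. The 3 tested chemokine ligands outside the list, of which 1 rose and 2 fell, had a median log2 change of -1.05. The groups did not overlap for 8 of the 9 genes, 7 with rShh above Control and 1 below. Over all genes tested the groups did not overlap for 68.1%, with 35.7% above and 32.5% below. Since whole cell cultures were measured, a change in the number of expressing cells and a change in RNA per cell cannot be told apart.

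**Figure D1:**
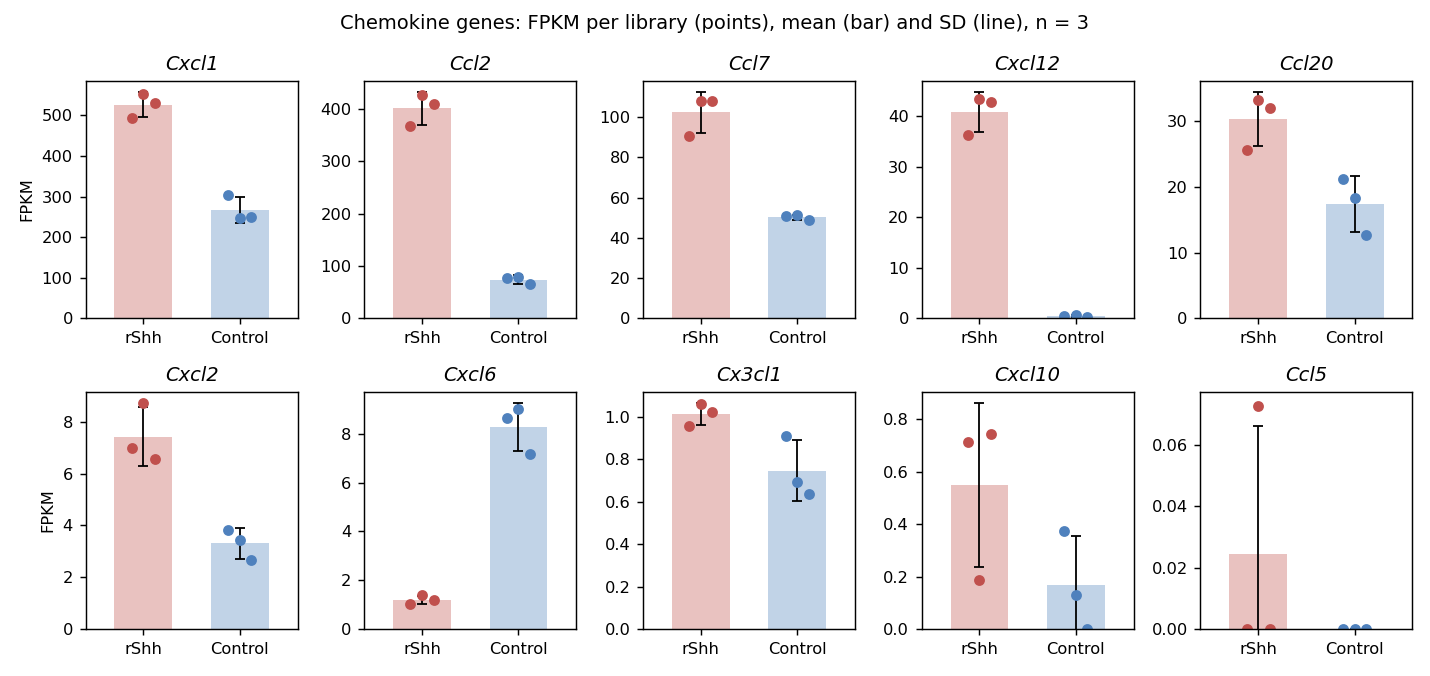
FPKM (fragments scaled to transcript length and library depth, as deposited) of the 10 chemokine genes in each library, with rShh left and Control right of each panel; points are libraries, bars the group mean, lines the SD (cut off at 0), n = 3, and each panel has its own scale. All rShh points lie above the Control points for Cxcl1, Ccl2, Ccl7, Cxcl12, Ccl20, Cxcl2 and Cx3cl1, below them for Cxcl6, and among them for Cxcl10 and Ccl5.

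Cxcl12, also called SDF-1, retains stem and progenitor cells in their niches by acting on the receptor Cxcr4. Its gene lay on chromosome 4 at 149261044 to 149273891, on the plus strand, in the deposited table, with a transcript of 4 exons and 5423 bases. Cxcl12 had 15314, 19192 and 17936 counts in the rShh libraries, against 131, 196 and 104 in the Control libraries. In FPKM the same libraries stood at 36.2, 43.4 and 42.7 in rShh and at 0.361, 0.558 and 0.313 in Control. Every rShh library was therefore far above every Control library, and none of the 6 was at 0. Cxcl12 averaged 262 ± 21.6 CPM in rShh cells and 2.67 ± 0.858 CPM in Control cells (SD, n = 3 each). The log2 change was 6.61 (SE 0.17, edgeR adjusted p = 2.21e-09), and its 95% interval ran from 75.3-fold to 127-fold. Of the 14775 genes tested, 141 had a higher fitted log2 change, genes at 0 in Control included. It changed its place among the 10 chemokines, being the fourth by mean FPKM in rShh cells and the eighth in Control cells, where its sample range overlapped that of Cxcl10.

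**Figure D2:**
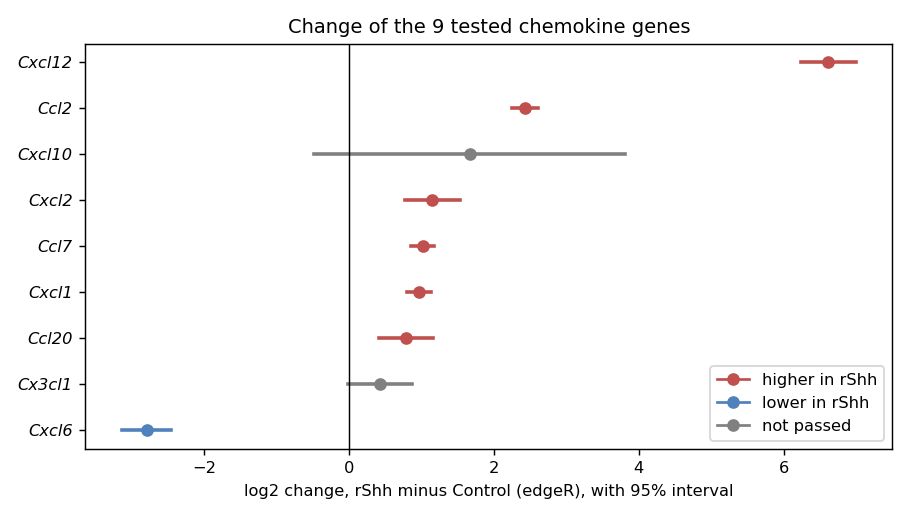
Fitted log2 change, rShh minus Control, of the 9 tested chemokine genes (points) with 95% intervals (lines); colour gives the call at an adjusted p below 0.05. Cxcl12 stands alone at 6.61, Ccl2 lies at 2.43, Cxcl6 is the only gene below 0, at -2.79, and the intervals of Cxcl10 and Cx3cl1 cross 0.

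Ccl2 (MCP-1), the main attractant of monocytes through the receptor Ccr2, and Ccl7 (MCP-3), a close relative with several receptors, are neighbours on chromosome 10. The table places Ccl2 at 69412017 to 69413870 and Ccl7 at 69423086 to 69424979, both on the plus strand and 9.2 kb apart. Ccl2 had 367, 427 and 409 FPKM in the rShh libraries and 77.1, 79.6 and 64.8 FPKM in the Control libraries. Its counts were 23885, 29072 and 26438 in rShh and 4307, 4285 and 3305 in Control. The groups did not overlap, and Ccl2 rose 5.39-fold (95% interval 4.74 to 6.12, edgeR adjusted p = 9.29e-09). Ccl7 had 90.7, 108 and 108 FPKM in the rShh libraries, against 50.6, 51.2 and 48.7 FPKM in the Control libraries. It rose 2.02-fold (95% interval 1.81 to 2.26, edgeR adjusted p = 1.27e-06), again without overlap. The unequal change of the neighbours showed in their ratio within a library. Ccl2 stood at 3.93 ± 0.127 times the FPKM of Ccl7 in rShh cells and at 1.47 ± 0.121 times in Control cells (SD, n = 3 each). This ratio was picked after the values were seen, and a two-sided exact permutation test gave p = 0.1, below which a design of 3 against 3 cannot go. The next chemokines along the chromosome, Ccl11 (an eosinophil attractant) and Ccl1, had too few counts to be tested, with group means of at most 0.110 CPM for Ccl11 and 0.0395 CPM for Ccl1.

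Cxcl1, Cxcl2 and Cxcl6 attract neutrophils through Cxcr2 and lie within a short stretch of chromosome 14, all on the minus strand. In the deposited table Cxcl2 lies at 18731378 to 18733391, Cxcl1 at 18743685 to 18745457 and Cxcl6 at 18860264 to 18862407. They went in opposite directions. Cxcl1, the most abundant of the 10 in every library, had 494, 554 and 532 FPKM in the rShh libraries and 303, 248 and 250 FPKM in the Control libraries. It rose 1.96-fold (95% interval 1.75 to 2.20, edgeR adjusted p = 2.21e-06), and by mean FPKM it ranked 104 among all 19088 rows in rShh cells and 256 in Control cells. Cxcl2, an ELR chemokine close in sequence to Cxcl1, was far lower, at 6.99, 8.73 and 6.58 FPKM in rShh and 3.84, 3.42 and 2.68 FPKM in Control. It rose 2.22-fold (95% interval 1.70 to 2.90, edgeR adjusted p = 0.000224).

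Cxcl6, which RefSeq lists with the synonym Cxcl5, had 132, 183 and 149 counts in the rShh libraries, against 939, 945 and 711 in the Control libraries. In FPKM it stood at 1.04, 1.38 and 1.18 in rShh and at 8.65, 9.02 and 7.16 in Control, so that every rShh library was below every Control library. The log2 change was -2.79 (SE 0.15, edgeR adjusted p = 1.86e-07), and 141 of the 14775 genes had a lower one. Within libraries, Cxcl1 stood at 443 ± 37.8 times the FPKM of Cxcl6 in rShh cells and at 32.5 ± 4.34 times in Control cells (two-sided exact permutation p = 0.1, the smallest possible). The ratio of Cxcl1 to Cxcl2 was 71.6 ± 8.74 in rShh cells and 81.6 ± 10.7 in Control cells (two-sided exact permutation p = 0.3), and the libraries of the groups overlapped. With 3 samples against 3 no ratio could reach a p below 0.1, so the test does not show that this ratio was the same. These ratios were also picked after the values were seen. Cxcl1, Cxcl2 and Cxcl3 are related in sequence and the handling of shared reads is not given in the sources used here, so their separate values are uncertain.

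Rows next to these genes were examined for comparison. Cxcl3, a further ELR chemokine that lies between Cxcl1 and Cxcl6, had 1016, 1453 and 1429 counts in the rShh libraries and 2301, 2067 and 2116 in the Control libraries. It fell, like Cxcl6 on its far side, with 19.5 ± 3.26 CPM in rShh cells and 40.3 ± 1.64 CPM in Control cells (log2 change -1.05, SE 0.12, edgeR adjusted p = 3.11e-05). On the side of Cxcl2, Mthfd2l, a mitochondrial folate enzyme, had 3.30 ± 0.333 CPM in rShh cells and 3.35 ± 0.228 CPM in Control cells, and its 95% interval of the log2 change ran from -0.43 to 0.39. Beyond it, the EGF receptor ligands Epgn and Ereg rose, Epgn to 11.2 ± 0.682 CPM in rShh cells against 2.75 ± 1.08 CPM in Control cells, and Ereg to 35.9 ± 2.04 against 9.81 ± 3.85 CPM. Beyond Cxcl6, Rassf6 (a Ras association domain gene) had 0.332 ± 0.193 CPM in rShh cells and 0.538 ± 0.253 CPM in Control cells, and LOC360919 had 1.44 ± 0.226 CPM in rShh cells and 1.88 ± 0.694 CPM in Control cells; neither passed (edgeR adjusted p = 0.375 and 0.331). The stretch from 200 kb before Cxcl2 to 200 kb after Cxcl6 held, at least in part, 9 tested genes. Of these 9, 4 rose, 2 fell and 3 did not pass, where 31.5% of all genes tested rose and 28.8% fell. No member row overlapped another gene row in the table.

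**Figure D3:**
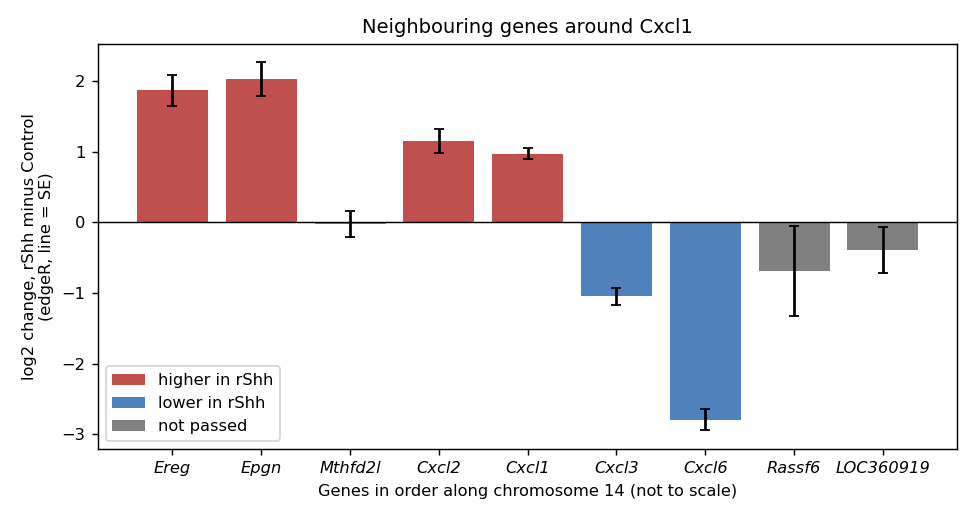
Fitted log2 change, rShh minus Control, of 9 tested neighbouring genes of chromosome 14, drawn in order of position and not to scale; bars are the change, lines the SE, and colour the call. Ereg, Epgn, Cxcl2 and Cxcl1 are above 0 and Cxcl3 and Cxcl6 below it, at -1.05 and -2.79; Mthfd2l, at -0.02, and Rassf6 and LOC360919, at -0.69 and -0.39, did not pass.

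The promoters of Cxcl1, Cxcl2, Cxcl6 and Cxcl12 are shown because these genes moved in opposite directions or by very different amounts. The letters are the 250 bases before the RefSeq start in build GRCr8, in the direction of the gene, and the deposited coordinates above belong to a build that is not given in the sources used here. Capitals mark matches on either strand to the NF-kB motif GGGNNNTTC. The 4 motifs searched were this, the AP-1 motif TGANTCA, the GLI motif GACCACCCA and the TATA box TATAAA. GLI factors are the transcription factors at the downstream end of the Hedgehog pathway.
Cxcl1 (chr14:17479322-17479571, minus strand): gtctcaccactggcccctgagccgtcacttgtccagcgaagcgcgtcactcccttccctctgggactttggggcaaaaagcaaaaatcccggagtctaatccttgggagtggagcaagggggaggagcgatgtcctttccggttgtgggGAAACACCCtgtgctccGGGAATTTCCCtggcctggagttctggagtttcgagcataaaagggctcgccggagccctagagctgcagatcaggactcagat
Cxcl2 (chr14:17467256-17467505, minus strand): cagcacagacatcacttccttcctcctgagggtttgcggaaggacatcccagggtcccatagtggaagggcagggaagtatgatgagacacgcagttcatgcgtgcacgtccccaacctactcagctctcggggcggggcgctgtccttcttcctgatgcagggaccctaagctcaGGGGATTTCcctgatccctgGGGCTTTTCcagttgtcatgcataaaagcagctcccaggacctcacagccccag
Cxcl6 (chr14:17596418-17596667, minus strand): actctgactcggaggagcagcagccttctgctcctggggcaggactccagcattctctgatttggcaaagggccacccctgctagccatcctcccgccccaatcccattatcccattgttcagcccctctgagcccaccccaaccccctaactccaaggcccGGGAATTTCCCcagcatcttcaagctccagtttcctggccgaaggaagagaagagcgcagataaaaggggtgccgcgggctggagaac
Cxcl12 (chr4:152060531-152060780, plus strand): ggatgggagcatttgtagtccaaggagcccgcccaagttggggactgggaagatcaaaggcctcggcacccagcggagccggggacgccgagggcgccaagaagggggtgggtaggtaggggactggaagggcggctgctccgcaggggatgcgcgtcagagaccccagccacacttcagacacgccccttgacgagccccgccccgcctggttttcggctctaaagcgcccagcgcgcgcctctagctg

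Cxcl1, which rose, and Cxcl6, which fell, held the same 11-letter run GGGAATTTCCC, which matches the NF-kB motif on both strands in overlapping positions. In Cxcl1 it began 84 bases before the start and in Cxcl6 88 bases before it. Cxcl1 held a further NF-kB match, GAAACACCC, beginning 101 bases before the start, and Cxcl6 held no other. Cxcl2 held the motif at other letters, beginning 74 and 54 bases before the start, and the window of Cxcl12 held none of the 4 motifs. RefSeq promoters were found for 8 of the 10 members, all but Ccl2 and Ccl5. Of these 8, 6 held the NF-kB motif (Ccl7, Ccl20, Cxcl1, Cxcl2, Cxcl6 and Cxcl10), against 11.9% of 33469 promoters of the same length. The AP-1 motif was in 2 (Ccl7 and Cxcl10), against 6.34% of promoters. The exact letters TATAAA were in 3, against 12.9%, beginning 34 (Ccl7), 78 (Cx3cl1) and 162 (Cxcl10) bases before the start. The GLI motif was in 0 of the 8 and in 0.338% of all promoters. A match is a description of the letters and not a bound site.

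Ccl20, which draws Ccr6-bearing lymphocytes and dendritic cells, was the fifth by FPKM in rShh cells and the fourth in Control cells. The table places it on the plus strand of chromosome 9, at 88918433 to 88921001. Ccl20 had 25.6, 33.2 and 32.0 FPKM in the rShh libraries, against 21.2, 18.3 and 12.7 FPKM in the Control libraries. The lowest rShh library was above the highest Control library, though the Control libraries spread more than those of Ccl7. It rose 1.73-fold (95% interval 1.34 to 2.23, edgeR adjusted p = 0.00203).

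The remaining members were low, and none of them passed the test. Cx3cl1, a membrane-tethered chemokine that is shed to attract Cx3cr1-bearing monocytes, is on the minus strand of chromosome 19, at 10644244 to 10653800. It had 234, 272 and 248 counts in the rShh libraries, against 191, 140 and 122 in the Control libraries, or 0.958, 1.06 and 1.02 FPKM in rShh and 0.910, 0.694 and 0.635 FPKM in Control. The groups did not overlap, but the 95% interval of the fold ran from 0.994 to 1.83 (edgeR adjusted p = 0.0826). Cxcl10, an interferon-induced attractant of T cells, had 64, 18 and 66 counts in the rShh libraries and 29, 10 and 0 in the Control libraries (chromosome 14, 17210733 to 17212930, plus strand). Its groups overlapped, and the interval of the fold was wide, at 0.719 to 14 (edgeR adjusted p = 0.159). Control replicate 1 decided both calls: with that library left out, Cx3cl1 had an edgeR adjusted p of 0.0251 and Cxcl10 one of 0.0383. Ccl5 (RANTES), a T-cell and monocyte attractant, had 4 counts in rShh replicate 2 and 0 in the other 5 libraries, and was not tested. A count of 0 allows up to 3 counts, or 0.0431 to 0.0591 CPM in these libraries, which covers counting error only.

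Summed over the 10 genes, chemokine FPKM was 1111 ± 79.5 in rShh cells and 421 ± 40.8 in Control cells (SD, n = 3 each), or 2.64 times higher in rShh. Cxcl1 and Ccl2 held most of it in every library. Cxcl1 made up 47.4% ± 0.728 of the sum in rShh cells and 63.3% ± 2.60 in Control cells. Ccl2 made up 36.1% ± 0.191 in rShh cells and 17.6% ± 1.58 in Control cells. Ccl7 contributed 9.20% ± 0.325 in rShh cells and 12% ± 0.965 in Control cells although its own level rose. Cxcl12 contributed 3.67% ± 0.116 in rShh cells and 0.098% ± 0.033 in Control cells, and Cxcl6 0.107% ± 0.008 in rShh cells and 1.97% ± 0.198 in Control cells. The 10 genes held 93.2% to 97.9% of the FPKM of all 22 listed chemokine ligands that had a row. By mean FPKM the order was Cxcl1, Ccl2, Ccl7, Cxcl12, Ccl20, Cxcl2, Cxcl6, Cx3cl1, Cxcl10 and Ccl5 in rShh cells, where neighbours in the order did not overlap except Cxcl6 and Cx3cl1. In Control cells it was Cxcl1, Ccl2, Ccl7, Ccl20, Cxcl6, Cxcl2, Cx3cl1, Cxcl12, Cxcl10 and Ccl5, where Cxcl12 with Cxcl10 and Cxcl10 with Ccl5 overlapped.

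**Figure D4:**
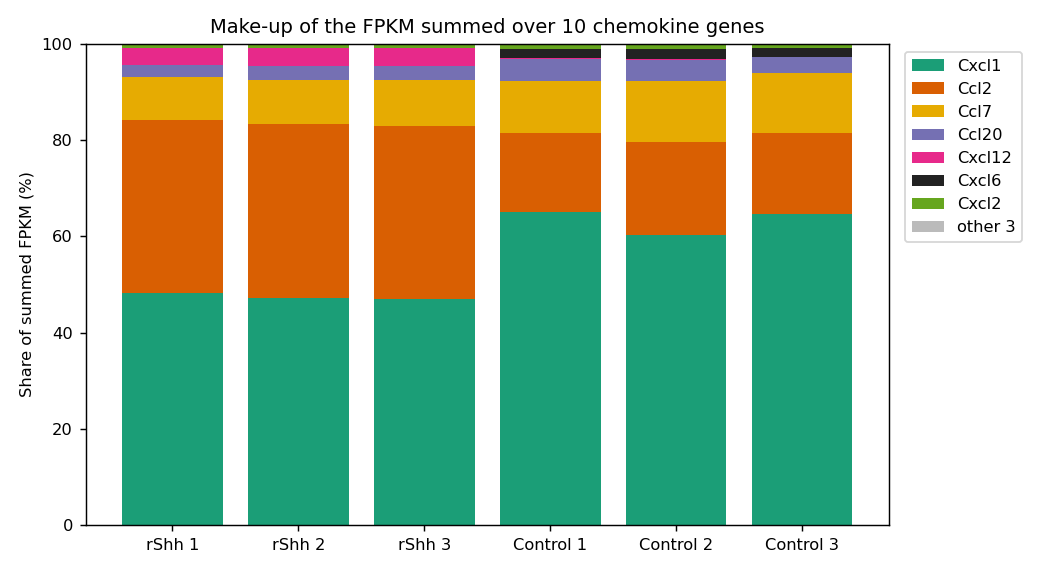
Share of each gene, in percent, in the FPKM summed over the 10 chemokine genes, 1 bar per library, with the rShh libraries left and the Control libraries right; "other 3" stands for Cx3cl1, Cxcl10 and Ccl5. Ccl2 takes 35.9% to 36.3% of the rShh bars and 16.5% to 19.4% of the Control bars, and Cxcl12 takes 3.54% to 3.77% of the rShh bars and at most 0.136% of the Control bars.

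Each member had 1 deposited transcript, of 545 (Ccl5) to 5423 bases, whose counts equalled the gene's in all 6 libraries. Tested among 18180 isoforms, of which 45.1% changed, 23.8% of them higher and 21.3% lower in rShh as shares of all tested, the same 6 transcripts rose and that of Cxcl6 fell. These are the same counts set against another background, not a second measurement. The FPKM folds lay close to the CPM folds, at 5.43 against 5.39 for Ccl2 and 99.3 against 98.2 for Cxcl12.

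The genes whose centred log2(CPM + 1) profile over the 6 libraries was closest to that of Cxcl1, the member with the highest mean CPM, included Lrp6 (a Wnt co-receptor, distance 0.0648) and Xpo1 (a nuclear export receptor, 0.0909). Lrp6 had 200 ± 14.3 CPM in rShh cells and 101 ± 10.2 CPM in Control cells. Among the members themselves, Ccl7 was the closest to Cxcl1, at a distance of 0.247, and Cxcl2 followed at 0.304. Cxcl12 was the farthest, at 6.41.

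Other chemokine ligands went both ways. Of 26 listed, 12 had a row and 3 could be tested. Of these 3, 1 rose and 2 fell, where 31.5% of all genes tested rose and 28.8% fell. Cxcl16, a membrane-bound chemokine that also takes up oxidized lipoprotein, rose to 26.6 ± 1.32 CPM in rShh cells, against 3.74 ± 0.294 CPM in Control cells (log2 change 2.83, SE 0.11, edgeR adjusted p = 1.96e-08). Cxcl3, described above, fell, and so did Ccl27, a skin chemokine, with 0, 26 and 27 counts in the rShh libraries and 62, 45 and 101 in the Control libraries (edgeR adjusted p = 0.0394). Ccl27 did not pass without either rShh replicate 2, rShh replicate 3, Control replicate 2 or Control replicate 3 (edgeR adjusted p 0.0525 to 0.141).

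Receptors for these ligands were scarce. Of 18 signalling chemokine receptors 7 had a row and 4 could be tested. Of these 4, 2 rose, 0 fell and 2 did not pass, where 31.5% of all genes tested rose and 28.8% fell. The CPM of the 7 receptors with a row summed to 1.97 to 2.59 in the rShh libraries and 0.429 to 1.11 in the Control libraries. Cxcr5, the B-cell receptor of Cxcl13, had 89, 112 and 96 counts in the rShh libraries and 27, 6 and 23 in the Control libraries (edgeR adjusted p = 0.00463). Ccr1, a receptor of Ccl7 and Ccl5, had 20, 15 and 11 counts in rShh and 0 in each Control library (edgeR adjusted p = 0.00262). It had too few counts to be tested without rShh replicate 1 or without rShh replicate 2. Cxcr4, the signalling receptor of Cxcl12, had 0, 0 and 3 counts in the rShh libraries and 10, 0 and 0 in the Control libraries and was not tested. The scavenging receptor of Cxcl12, Ackr3, was by contrast well expressed and rose, at 48.1 ± 2.49 CPM in rShh cells and 38.3 ± 1.87 CPM in Control cells (log2 change 0.33, SE 0.07, edgeR adjusted p = 0.00268). Of 5 atypical receptors 3 were tested, and Ackr4, which scavenges CC chemokines, also rose, at 12.9 ± 0.4995 CPM in rShh cells and 8.06 ± 1.72 CPM in Control cells (edgeR adjusted p = 0.00293). Ccrl2 did not pass.

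Proteases that trim or shed chemokines were listed as well, and 4 of 5 rose while 1 fell, beside 31.5% and 28.8% of all genes tested. Dpp4, which clips and inactivates Cxcl12 and Cxcl10, had 0, 3 and 3 counts in the rShh libraries, against 502, 235 and 232 in the Control libraries (edgeR adjusted p = 1.57e-06). Adam10 and Adam17, which shed Cx3cl1 and Cxcl16 from the cell surface, both rose. Adam17 had 175 ± 4.17 CPM in rShh cells and 65.4 ± 7.65 CPM in Control cells, and Adam10 had 81.7 ± 2.23 CPM in rShh cells and 38.7 ± 6.21 CPM in Control cells. Mmp9, a gelatinase, had 5.00 ± 0.498 CPM in rShh cells and 0.543 ± 0.303 CPM in Control cells (edgeR adjusted p = 2.16e-05).

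Of 19 tested genes of the interleukin-1, tumour necrosis factor and NF-kB pathways, activators and inhibitors together, 9 rose, 2 fell and 8 did not pass. Over all genes tested, 31.5% rose and 28.8% fell. Nfkbiz, a nuclear co-activator of some NF-kB targets, rose to 71.8 ± 8.32 CPM in rShh cells, against 19.4 ± 4.64 CPM in Control cells. Il1rl1, the receptor of interleukin-33, rose to 60.97 ± 2.72 CPM in rShh cells, against 24.1 ± 4.94 CPM in Control cells. Il1a, an interleukin-1 ligand, had 632, 880 and 757 counts in the rShh libraries and 24, 39 and 0 in the Control libraries (edgeR adjusted p = 2.96e-05). The other interleukin-1 ligand listed, Il1b, had 6, 15 and 16 counts in rShh and 18, 24 and 0 in Control, and did not pass (edgeR adjusted p = 0.7). Tnf had 3 counts in Control replicate 2 and 0 in every other library, and was not tested. Inhibitors were among the genes that rose too, and are named here after their values were seen. Il1rn, the antagonist of the interleukin-1 receptor, had 99, 131 and 141 counts in the rShh libraries and 4, 0 and 0 in the Control libraries (edgeR adjusted p = 6.16e-05). Tnfaip3 (A20), which dampens NF-kB signalling, rose to 16.3 ± 0.833 CPM in rShh cells, against 9.47 ± 0.819 CPM in Control cells (edgeR adjusted p = 0.000145). Rela, the main NF-kB activating subunit, fell to 53.2 ± 1.27 CPM in rShh cells, against 69.1 ± 5.06 CPM in Control cells. Nfkbia, the inhibitor that NF-kB itself induces, had 35.1 ± 0.905 CPM in rShh cells and 40.1 ± 1.69 CPM in Control cells (edgeR adjusted p = 0.0349, and 0.0661 to 0.122 without any of the libraries but Control replicate 3).

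Of 5 factors that control the stability of chemokine mRNAs, 4 rose and 1 fell, against a background of 31.5% higher and 28.8% lower. Zfp36l1, which speeds decay of AU-rich mRNAs, had 96.96 ± 3.64 CPM in rShh cells and 37.9 ± 3.00 CPM in Control cells, and Zc3h12a, an RNase that cleaves inflammatory mRNAs, had 83.6 ± 2.57 CPM in rShh cells and 57.4 ± 2.47 CPM in Control cells. Zfp36l2 rose to 57.6 ± 1.93 CPM in rShh cells, against 41.7 ± 2.29 CPM in Control cells. Elavl1, which stabilizes such mRNAs, had 29.6 ± 1.38 CPM in rShh cells and 33.7 ± 0.451 CPM in Control cells (edgeR adjusted p = 0.0464, and 0.0526 to 0.172 without any one library). Among 10 genes of interferon signalling 2 rose and 6 fell, while 2 did not pass the test, where 31.5% of all genes rose and 28.8% fell. Ifngr1, a chain of the interferon-gamma receptor, rose to 46.2 ± 2.36 CPM in rShh cells, against 36.0 ± 1.12 CPM in Control cells. Stat2 fell to 27.5 ± 1.75 CPM in rShh cells, against 47.5 ± 2.22 CPM in Control cells, and Irf7, an amplifier of the type I interferon response, to 2.83 ± 0.410 against 5.14 ± 0.372 CPM. Ifngr2, the other chain of that receptor, fell to 37.3 ± 2.17 CPM in rShh cells, against 50.4 ± 3.33 CPM in Control cells.

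**Figure D5:**
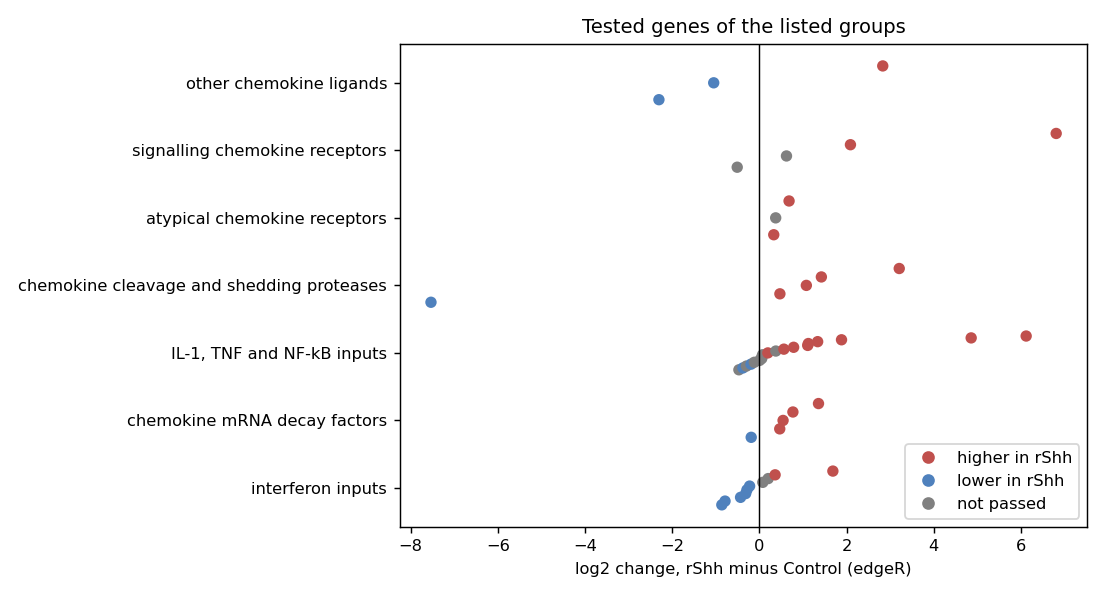
Fitted log2 change, rShh minus Control, of every tested gene of the listed groups (1 point per gene, spread vertically within its group for legibility), coloured by call. Points of the chemokine mRNA decay factors are above 0 except that of Elavl1, and those of the interferon inputs lie on both sides; the outermost points, Ccr1 and Dpp4, have few or 0 counts in 1 group, so their fitted change depends on the prior count.

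Markers of other cells that make chemokines were counted in the same libraries, in which 31.5% of all tested genes rose and 28.8% fell. Of 10 leukocyte markers 4 had a row, at summed levels of 0.359 to 0.993 CPM in the rShh libraries and 0.298 to 0.670 CPM in the Control libraries. The defining marker Ptprc and the macrophage markers Adgre1 and Lyz2 had no row. Of 7 endothelial markers 3 had a row, while Pecam1 and Cdh5 had none. The sum of the 3, mostly Tek, was 1.95 to 2.22 CPM in the rShh libraries and 4.86 to 7.07 CPM in the Control libraries. All 6 pericyte and smooth muscle markers had a row, and 5 of 6 rose. Their sum was 6160 to 6560 CPM in the rShh libraries and 3740 to 5480 CPM in the Control libraries. Most of that sum was Acta2, the 1 marker that did not pass (edgeR adjusted p = 0.0507). Of 6 fibroblast markers 4 rose, 1 fell and 1 did not pass, and their sum, mostly Col1a1, was 17000 to 17800 CPM in the rShh libraries and 33600 to 36700 CPM in the Control libraries. The part of these mesenchymal markers, and of the Y-chromosome difference, in the chemokine changes was not tested.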

How the data were processed

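The series holds 6 poly(A) RNA-seq libraries (3 rShh, 3 Control). The authors deposited whole-number counts and FPKM values per gene and per isoform, per the file headers; the counts are not normalized. The tools named in the submitters' processing notes are HISAT2 2.0.4, StringTie 1.3.4d, edgeR, DESeq2 and cutadapt 1.9. Their roles, the genome build and the strand setting of the counting were not given in the sources used here.

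The deposited counts of all genes were fitted together (R 4.3.3, edgeR 4.0.16): filterByExpr (minimum count 10), TMM scaling, glmQLFit and glmQLFTest, two-sided, group as the only term, Benjamini-Hochberg adjustment, threshold 0.05. The standard error is the log2 change divided by the square root of F, and 95% intervals use it. CPM values use the TMM-scaled library sizes. Alternatives were other scalings, no filter, DESeq2 1.42.0, limma 3.58.1 on log2(FPKM + 1) and log2(FPKM + 0.1), a replicate block, and leaving out each sample. The scripts were tested on simulated data.

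Libraries of a group differed by a chi-square per degree of freedom of 10.5 to 50.5, so none was counted as a repeat. The members and lists were chosen with earlier results of these data known. Named are the members, up to 3 genes per list and direction with the smallest p, and the 3 profiles closest to the member with the highest mean CPM; other genes, such as the neighbours on chromosome 14 and Cxcr4, were chosen after their values were seen. Some genes that the rule names are not reported here. Promoter sequences come from RefSeq, build GRCr8.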

Additional observations from a re-analysis of the deposited data

How the results depend on the processing

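The 6 increases and the decrease of Cxcl6 passed under all 14 alternatives at the gene level where a value was available, and of 122 member values 120 kept their direction and side of the threshold. The other 2 passed without Control replicate 1 (Cx3cl1, log2 change 0.59, and Cxcl10, 2.96), which gave 8 chemokine increases in place of 6. With each sample left out in turn the increases numbered 6 to 8. Cx3cl1 and Cxcl10 fell under the FPKM minimum of 1 and had no limma value there. The log2 change of Cxcl12 ranged from 4.89 (limma on log2(FPKM + 1)) to 6.90, since that scale understates the change of low genes. Over all genes the calls ran from 4162 to 4878 higher and 3676 to 4374 lower with a sample left out, and upper-quartile scaling gave 4273 higher and 4798 lower. No scaling moved the median log2 change of all genes beyond -0.05 to 0.02. Listed pathway genes called lower numbered 12, and 6 to 9 with a sample left out, where fewer samples were fitted. Of 338 values of listed genes 317 kept direction and call, 21 no longer passed and 0 turned round; the 21 were all of Ccl27, Nfkbia or Elavl1.

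Samples with the same number did not deviate together (correlations of -0.075, -0.010 and -0.009). The labels do not say whether samples were paired, and with 3 samples per group these correlations cannot exclude it. With the replicate block 4470 genes were higher and 3970 lower, and the chemokine calls stayed at 6 and 1. Among isoforms 5 in place of 6 were called higher with the replicate block, without rShh replicate 2 and without rShh replicate 3, as Ccl20 no longer passed. Depth limits Ccl5, with 4 counts in all.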
